A study of Homo sapiens with 6 samples.

Results

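The tandem arrays of 5S ribosomal RNA and REXO1L1 are described here by the H3K27ac peaks that the authors called in them. The members are the deposited peaks that overlapped chromosome 1 from 228740000 to 228790000, the 5S interval of 50 kb, or chromosome 8 from 86550000 to 86850000, the REXO1L1 interval of 300 kb, by at least 1 bp on hg19. Of 1440888 peaks in the 6 lists, 234 were members, 56 in the 5S interval and 178 in the REXO1L1 interval. The intervals were chosen from earlier results on the widths, folds and covered lengths of these same peaks, so those values are descriptions with no test.

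The authors mapped acetylation of lysine 27 of histone H3, which marks active promoters and enhancers, by chromatin immunoprecipitation and sequencing in CCRF-CEM, an established human leukemia line of T lymphoblasts. The groups were cells with an SLFN11 gene knockout given DMSO (knockout control), camptothecin at 100 nM for 2 h (knockout 2 h) or for 4 h (knockout 4 h), and wild-type parental cells given the same (parental control, 2 h and 4 h). Camptothecin traps topoisomerase 1 on DNA, and SLFN11 is known to sensitise cells to such drugs. Each group had 1 library, so no value has a replicate check and each comparison is between single libraries. Whether the knockout cells were 1 clone is not given in the sources used here. The SLFN11 locus and markers of T lymphoblasts were not analysed here, because no annotation of hg19 was used.

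The 5S ribosomal RNA is a component of the large ribosomal subunit. It is transcribed by RNA polymerase III, from genes that lie in tandem with a gene in each repeat unit. REXO1L1 belongs to a macrosatellite, a tandem array of long units that hold copies related to the exonuclease gene REXO1. Copies of such repeats are nearly identical, so a short read from a copy can be placed on another, and the reference may hold another number of copies than the cells do. RefSeq, on the assembly GRCh38.p14, lists 17 genes of 5S ribosomal RNA, each 121 bp long, and 11 pseudogenes of the REXO1L family. The peaks are on another build, so no gene is placed at a peak below.

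The lists differed in size and depth. They held 271785, 221753 and 410176 peaks in knockout control, 2 h and 4 h, and 174843, 180754 and 181577 in parental control, 2 h and 4 h. The background pileup, a measure of relative depth solved from the commonest combination of fold and p in a list, was 0.168 fragments per base in knockout 4 h and between 0.506 and 0.715 in the other libraries. Each peak carries a fold, the authors' mean ratio of pileup to local background over the peak, and a −log10 p from the same 2 quantities. Ranks and percentiles below are within the list of 1 library.

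In all 6 libraries the 5S array was a run of broad peaks that began between 228744097 and 228744126 and ended between 228782460 and 228783840. The peaks were very wide and of low fold. They covered 65.6%, 63.4% and 47.6% of the 50 kb in knockout control, 2 h and 4 h, and 66.1%, 64.5% and 67.9% in parental control, 2 h and 4 h. In the 50 kb on each side of the interval, 13.7% to 15.6% was covered in the knockout libraries and 7.71% to 9.62% in the parental libraries. Across chromosomes 1 to 22 and X, cover was between 4.07% and 6.36% in the 6 libraries. The array was thus covered more densely than its flanks in 6 of 6 libraries, and knockout 4 h had the lowest cover of the array.

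The run in knockout control had 7 peaks, with widths of 10188, 401, 2629, 3144, 2324, 3491 and 10218 bp along the array. Their folds were 1.58, 1.45, 1.35, 1.41, 1.47, 1.34 and 1.55 in the same order. The peaks of 10218 and 10188 bp were the widest and the next widest of the whole list. Knockout 2 h had 10 peaks, of 3485, 3649, 3287, 1515, 3507, 1315, 1421, 3456, 2404 and 7663 bp, with folds from 1.32 to 1.72. Its peak of 7663 bp ranked 5 by width. Knockout 4 h differed in form, with 15 narrower peaks whose widest, the last of the run, was 4923 bp and ranked 97 by width.

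In parental control the run had 7 peaks, of 8043, 3116, 7602, 2478, 2412, 2376 and 7030 bp, with folds of 1.55, 1.38, 1.34, 1.36, 1.31, 1.34 and 1.57. Those of 8043, 7602 and 7030 bp ranked 2, 4 and 9 by width. Parental 2 h had 8 peaks, of 9147, 1418, 5332, 1422, 3265, 2393, 2372 and 6884 bp, with folds from 1.31 to 1.60, and the peak of 9147 bp was the widest of its list. Parental 4 h had 6 peaks, of 3487, 3756, 3219, 1425, 12358 and 9517 bp, with folds of 1.73, 1.38, 1.36, 1.36, 1.35 and 1.54. The last 2 were the widest and the next widest of that list. Peaks of at least 5000 bp were rare in every list, between 72 and 127, and 11 of them in all lay in the 5S array.

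**Figure D1:**
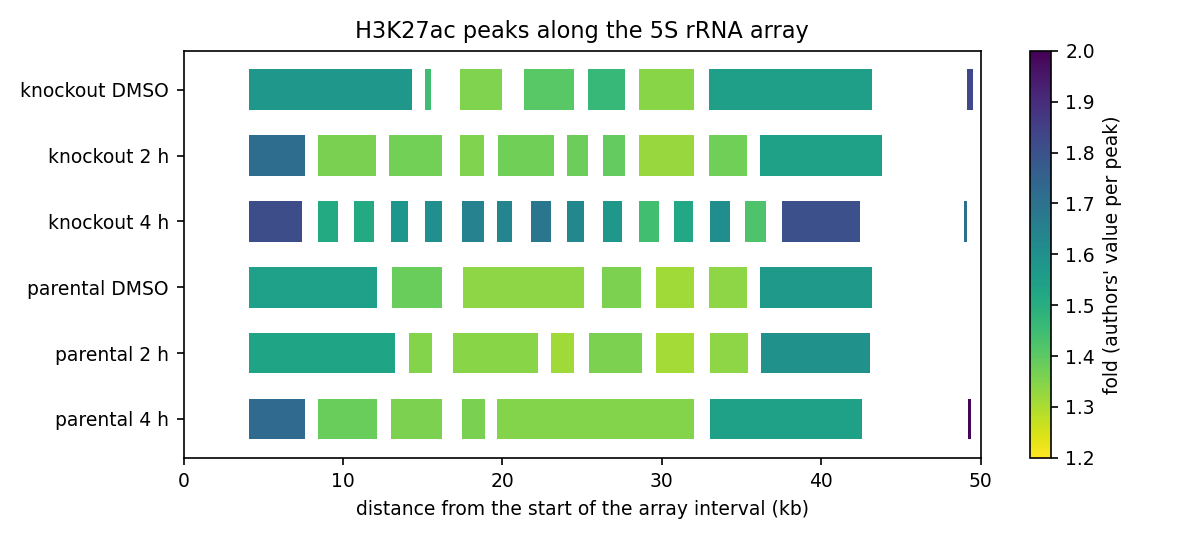
Peaks of each library along the 5S interval, with the distance from its start in kb on the x axis, a row for each library and the colour giving the fold of the peak. Knockout 4 h shows 15 short blocks at regular distances, where the other libraries show 6 to 10 blocks over the same run.

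The folds of most 5S peaks lay at the bottom of their lists. The median fold over the members was 1.46, 1.37 and 1.61 in knockout control, 2 h and 4 h, where the median of all peaks was 2.04, 2.05 and 1.71. In parental control, 2 h and 4 h it was 1.36, 1.35 and 1.38, where all peaks had 2.15, 2.27 and 2.18. The percentile of the median member by fold was between 0.0072 and 0.0211 in the 5 libraries other than knockout 4 h, and 2.39 in knockout 4 h, where the first and the last peak of the run stood at 71.7 and 71.5. None of the 56 members reached a fold of 2.

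By −log10 p the 5S peaks stood in the upper part of the lists but not near the top. The rank of the strongest member was 22402, 16914 and 10414 in the knockout control, 2 h and 4 h lists, which is within the first 8.24%, 7.63% and 2.54% of each list. In parental control, 2 h and 4 h it ranked 16176, 14512 and 11939, within the first 9.25%, 8.03% and 6.58%. Ranks from lists of different length show no change between libraries. Among the 30000 peaks with the smallest p there were 3, 2 and 13 members in knockout control, 2 h and 4 h, and 5, 3 and 6 in parental control, 2 h and 4 h. That is 37.5%, 20% and 81.25% of the members in the knockout libraries, where 11.2%, 13.8% and 7.45% of all peaks were among these, and 71.4%, 37.5% and 85.7% in the parental libraries, where 17.5%, 16.9% and 16.8% were. In knockout 2 h the share of the members was near that of all peaks.

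**Figure D2:**
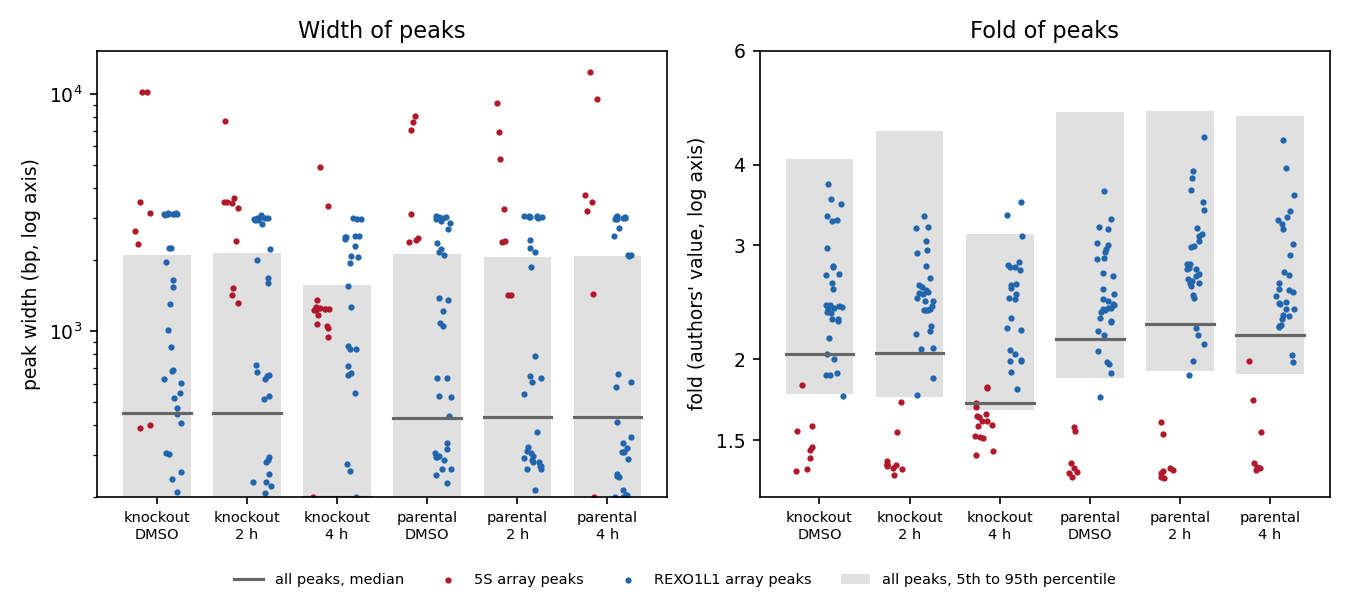
Width in bp (left, log axis) and fold (right, log axis) of the member peaks by library, as points, on the range from the 5th to the 95th percentile of all peaks of the list (grey) and their median (line). Outside knockout 4 h most 5S peaks lie above the grey range in width, and most lie below it in fold, while the REXO1L1 peaks lie within the range of fold in most cases.

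Outside the run, 3 libraries had a lone short member near the far end of the interval. It was 390 bp wide from 228789146 with a fold of 1.83 in knockout control, 200 bp from 228788982 with 1.71 in knockout 4 h, and 200 bp from 228789201 with 1.99 in parental 4 h. These peaks ranked between 121227 and 204768 by p, far below the run.

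The run in knockout 4 h was periodic. Its 13 inner peaks, those other than the first and the last, were 939 to 1356 bp wide, with a median of 1226 bp. Their starts followed each other at a median distance of 2237 bp, and the 12 distances ranged from 2122 to 2332 bp. The 14 gaps between its peaks were 864 to 1281 bp long. Shifted along itself, the cover of this library had its highest correlation at 2240 bp (r = 0.748 over 36124 positions of the sequence, which are not independent). The unit of the human 5S array is known to be of about this length, with a single gene in it.

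Where the other libraries opened, it was mostly at the same places, except in parental 2 h. Of the 14 gaps of knockout 4 h, knockout control bridged 8 and knockout 2 h 6, and parental control, 2 h and 4 h bridged 10, 9 and 9. The gaps from 228756191 to 228757471 and from 228771951 to 228773035 were bridged in none of them. The gap from 228765105 to 228766306 was bridged in parental 4 h and in no other library. Of the uncovered bases within the run, 71.3% and 89.3% in knockout control and 2 h lay in gaps of knockout 4 h, and 70.0%, 31.7% and 100% in parental control, 2 h and 4 h. For comparison, peaks covered 61.5% of the run in knockout 4 h, and its gaps made up the rest. Parental 2 h was thus the library whose openings were most often elsewhere. The peaks of knockout 4 h were covered at 91.8% and 96.3% of their bases in knockout control and 2 h, and at 92.2%, 80.4% and 99.9% in parental control, 2 h and 4 h. Over the whole run, cover was 82.9% and 79.8% in knockout control and 2 h, and 84.6%, 82.7% and 87.9% in parental control, 2 h and 4 h. No gap within a run was shorter than 805 bp in any library, and the shortest gap of each library was 805 to 864 bp long. How the peak caller joined neighbouring regions is not given, and its part in the gaps and bridges was not tested.

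With the 6 libraries summed, the highest correlation was at 4440 bp (r = 0.284 over 35304 positions). Without peaks wider than 2000 bp it was at 2260 bp, but most of the peaks then left were from knockout 4 h. Without knockout 4 h it was at 3330 bp. In single libraries it was at 4330 and 4420 bp in knockout control and 2 h. In parental control, 2 h and 4 h it was at 3350, 2760 and 4460 bp. The shorter spacing is therefore a description of knockout 4 h, the library of lowest depth. The part of its depth in the narrow peaks was not tested.

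The ends of the run had the highest folds. The first and the last peak had the highest 2 folds of the run in 6 of 6 libraries. They were 1.58 and 1.55 in knockout control, where the peaks between had 1.34 to 1.47, 1.72 and 1.54 in knockout 2 h (between: 1.32 to 1.39) and 1.81 and 1.81 in knockout 4 h (between: 1.42 to 1.69). In parental cells they were 1.55 and 1.57 in control (between: 1.31 to 1.38), 1.53 and 1.60 at 2 h (between: 1.31 to 1.36) and 1.73 and 1.54 at 4 h (between: 1.35 to 1.38). The ranges of the ends and the middle did not overlap in any library.

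MACS2 adds 1 to pileup and to background before it divides them, and derives p from a Poisson model, so that both quantities can be solved from the deposited pair. The solution is approximate, since the columns of a broad peak are means over it. On simulated peaks like those of the 5S array, the solved background was 1.06 to 1.31 times the true one (medians). Solved in this way, the low folds of the run stood on high values of both. The median solved background was 83.2, 102 and 279 times that of the library in knockout control, 2 h and 4 h, and 156, 191 and 183 times in parental control, 2 h and 4 h. Over all peaks, 0.200% to 0.423% had a local background of at least 50 times that of the library.

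The solved background was lowest at the ends. It was 51.1 and 51.5 fragments per base at the first and the last peak in knockout control, against 56.8 to 61.2 between them. At 2 h in the knockout it was 54.4 and 61.0 (between: 71.7 to 78.9), and at 4 h 33.9 and 36.7 (between: 44.4 to 49.5). Parental control had 81.1 and 78.5 (between: 92.1 to 101), parental 2 h 83.1 and 77.5 (between: 94.5 to 102) and parental 4 h 75.0 and 89.9 (between: 101 to 109). Whether the error of the solution differed between the ends and the middle was not tested. The solved pileup was more even along the run, from 77.2 to 88.3 fragments per base in knockout control, 94.2 to 109 at 2 h and 62.2 to 82.2 at 4 h. In parental control it was 124 to 134, at 2 h 124 to 137 and at 4 h 130 to 148. The knockout and parental ranges of pileup did not overlap at any of the 3 times, in units not corrected for depth.

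Relative to the library's background, the median pileup of the run was 118, 142 and 443 in knockout control, 2 h and 4 h, and 212, 258 and 250 in parental control, 2 h and 4 h. For comparison, 6451 other sites were matched across the 6 lists. These were peaks of at least 500 bp and a solved pileup of at least 30 in parental control, with a peak overlapping by at least 50% both ways in each list. Only peaks whose fold and p gave a single solution were used. These were 54712 of 410176 peaks in knockout 4 h and 116255 of 174843 in parental control. The part of this filter in the values below was not tested. Their medians were 88.4, 95.9 and 103 in knockout control, 2 h and 4 h, and 100, 104 and 107 in parental control, 2 h and 4 h. The run exceeded 77.1%, 84.3% and 99.8% of the sites in knockout control, 2 h and 4 h, and 97.1%, 99.1% and 99.2% in parental control, 2 h and 4 h. Ranked by solved pileup in place of p, the strongest 5S peak stood at 1287, 823 and 26 in the knockout lists and at 147, 42 and 39 in the parental lists.

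**Figure D3:**
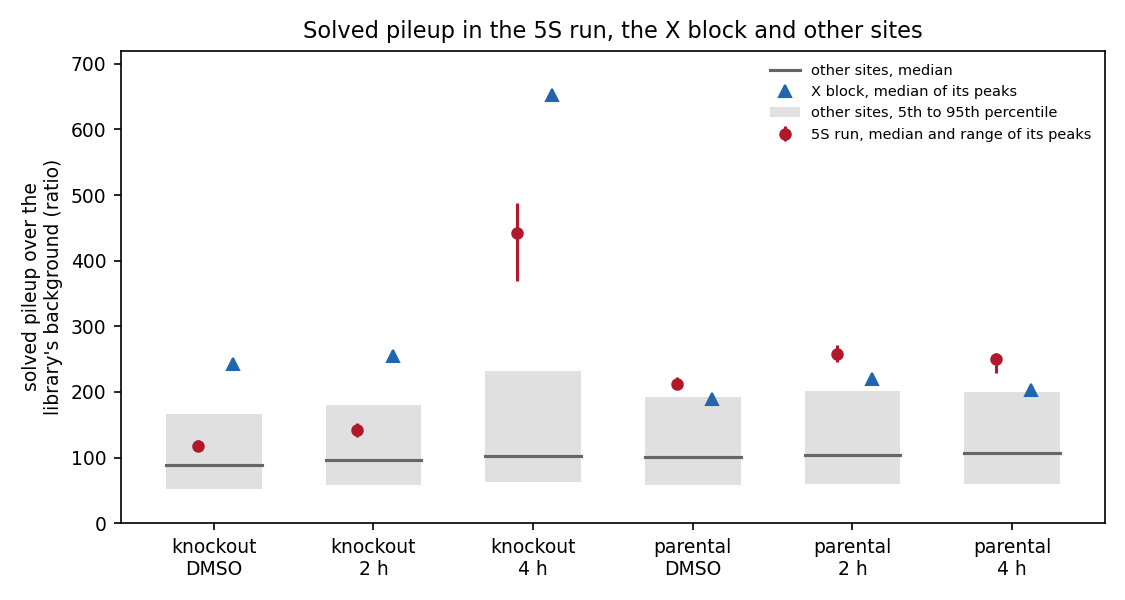
Solved pileup divided by the background of the library (y axis, ratio) for the 5S run (red points, median, with the range of its peaks as bars), for a block of peaks on chromosome X (blue triangles, median) and for 6451 other sites (grey, 5th to 95th percentile, with the median as a line). The 5S run is at 118 in knockout control and at 212 in parental control, and at 443 in knockout 4 h.

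Between genotypes, the run and the other sites differed in their ratios. The 5S pileup in knockout control was 0.646 times that in parental control, where the other sites had a median ratio of 1.01 (5th to 95th percentile 0.851 to 1.25) and 0.109% of them a lower ratio. At 2 h the knockout had 0.777 times the parental pileup, where the sites had 1.28 (1.06 to 1.803) and 0.0620% were lower. At 4 h the ratio was 0.523, where the sites had 0.297 (0.214 to 0.430) and 98.7% were lower. In pileup not corrected for depth the 5S ratio was below 1 at 3 of 3 times, but its place among the sites was reversed at 4 h, when knockout 4 h had 0.295 times the background of parental 4 h. Divided by the background of each library, the ratio of knockout to parental cells was 0.557 in control, 0.549 at 2 h and 1.77 at 4 h, so its direction at 4 h depends on this division. The sites were picked by their pileup in parental control, so that their ratios to this library are not independent of the choice.

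With treatment, the knockout run had 1.23 times the pileup of its control at 2 h, where the sites had a median of 1.11 (0.964 to 1.30) and 86.6% were lower. At 4 h it had 0.903 times, or 3.75 times once divided by the background of each library, where the sites had 0.292 times before that division (0.208 to 0.401) and 99.98% were lower. The parental run had 1.02 times the pileup of its control at 2 h, where the sites had 0.878 (0.671 to 1.07) and 89.8% were lower, and 1.12 times at 4 h, where they had 1.01 (0.726 to 1.26) and 75.9% were lower. The values at 2 h and 4 h share the control of their genotype. The run lay outside the range of the sites in knockout 4 h against control and within it in the other 3 treated comparisons. So did the block on chromosome X described next. Reads were not analysed here, so the part of reads shared between repeat copies in these values was not tested.

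A block on chromosome X, from 114959715 to 115005160 in parental control and chosen after its values were seen, had a like form. It held 16 peaks of high solved background in each library, with centres 2967.5 to 2993.5 bp apart (medians). Its median pileup over the library's background was 242, 255 and 653 in knockout control, 2 h and 4 h, and 189, 220 and 203 in parental control, 2 h and 4 h. Against parental cells the knockout had 1.48 times the pileup there in control, 1.64 times at 2 h and 0.952 times at 4 h, so the 5S run was lower in the knockout where the X block was higher, in control and at 2 h. Its folds were higher than those of the 5S run, with medians of 1.81 to 1.97. With treatment, the knockout X block had 1.08 times the pileup of its control at 2 h and 0.651 times at 4 h. The parental X block had 0.973 times at 2 h and 1.01 times at 4 h. In knockout 4 h against control, 99.9% of the other sites had a lower ratio than the X block.

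Cover was compared between libraries in windows of 10 kb, and a window was called longer or shorter when its covered length differed by at least 1000 bp. The background is the share of all windows marked in either library that were called the same way. It was not matched on cover, and a window with under 1000 bp in the library compared against cannot be called shorter. With all peaks, each 5S window held at least 2660 bp in every library. In the 5 windows of the 5S interval, knockout 2 h was longer than knockout control in 0 and shorter in 0, where 5.57% of all marked windows were longer and 12.4% shorter. Knockout 4 h was longer than knockout control in 0 windows and shorter in 4, against a background of 6.79% and 10.0%. The largest loss was at 228770001 to 228780000, with 6132 bp covered in knockout 4 h and 9059 bp in knockout control.

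Parental 2 h was longer than parental control in 0 of the 5 windows and shorter in 0, where the background was 8.12% and 7.71%. Parental 4 h was longer in 1 and shorter in 0, where it was 8.16% and 7.01%. The longer window starts at 228760001. Peaks took up 6918, 7423 and 5365 bp of it in knockout control, 2 h and 4 h, and 7964, 7275 and 10000 bp in parental control, 2 h and 4 h. Parental 4 h alone filled the window, and knockout 4 h had the least cover there.

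Between genotypes, knockout control was longer than parental control in 0 of the 5S windows and shorter in 1, where 17.9% of all marked windows were longer and 3.12% shorter. Knockout 2 h was longer than parental 2 h in 0 and shorter in 0 (background 13.1% and 5.22%). Knockout 4 h was longer than parental 4 h in 0 and shorter in 3 (background 12.1% and 4.37%). The largest loss was at 228760001, with 5365 bp in knockout 4 h against 10000 bp in parental 4 h, and next to it knockout 4 h had 6132 bp and parental 4 h 9025 bp from 228770001. The other windows were more alike. From 228740001, peaks took up 5876, 5077 and 4605 bp in knockout control, 2 h and 4 h, and 5878, 5875 and 5079 bp in parental control, 2 h and 4 h. From 228750001 it was 7342, 7127 and 5023 bp in the knockout series and 7770, 7792 and 7119 bp in the parental series, in the same order. From 228780001, where the run ends, it was 3590, 3840 and 2660 bp in the knockout and 3190, 3081 and 2739 bp in the parental series. Knockout 4 h had the lowest cover of the 6 libraries in each of the 5 windows, and its low background moved with this. The part of that background was not tested.

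In the REXO1L1 array the peaks were separate, at most 3144 bp wide and of ordinary fold. There were 31, 29 and 24 members in knockout control, 2 h and 4 h, and 33, 31 and 30 in parental control, 2 h and 4 h. They covered 15.7%, 14.5% and 12.8% of the 300 kb in the knockout libraries and 14.8%, 13.4% and 12.8% in the parental libraries, in the order control, 2 h and 4 h. The 50 kb on each side were covered at 0.752% to 2.99% in the knockout and at 0% to 1.42% in the parental libraries. No library had a peak between 86576331 and 86726404, a stretch of 150074 bp, and whether hg19 holds sequence there was not checked. Over the rest of the interval, 31.4%, 29.1% and 25.6% was covered in knockout control, 2 h and 4 h, and 29.5%, 26.8% and 25.6% in parental control, 2 h and 4 h.

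The median fold of the members was 2.42, 2.49 and 2.51 in knockout control, 2 h and 4 h, and 2.43, 2.76 and 2.55 in parental control, 2 h and 4 h. It lay above the median of the list in 6 of 6 libraries, at percentiles from 70.3 to 89.3. The REXO1L1 peaks thus stood above the middle of their lists by fold, where the 5S peaks stood at the bottom.

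The widest member was 3144 bp long from 86756218 in knockout control, 3078 bp from 86814272 at 2 h and 2981 bp from 86774665 at 4 h. In parental control it was 3054 bp from 86774659, at 2 h 3065 bp from 86826438 and at 4 h 3068 bp from 86774593. The widest peaks differed little between the libraries, and in contrast to the 5S array none was among the 1000 widest of its list.

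The strongest member by p was often narrow. It ranked 17992 in knockout control (2246 bp from 86726405, fold 3.53), 23723 at 2 h (231 bp from 86559480, fold 3.20) and 19139 at 4 h (1927 bp from 86726568, fold 3.50). In parental control it ranked 20185 (338 bp from 86735211, fold 3.64), at 2 h 13109 (312 bp from 86766506, fold 4.41) and at 4 h 14926 (320 bp from 86560935, fold 4.37). This peak also had the highest fold of the array in knockout 4 h and in the 3 parental libraries. The highest fold was 3.73 in knockout control, at 86733909, and 3.33 in knockout 2 h, at 86796267. The narrowest members were 200 to 229 bp wide, and began at 86760381, 86763503 and 86821098 in knockout control, 2 h and 4 h, and at 86831736, 86806232 and 86735289 in parental control, 2 h and 4 h. Knockout 4 h and parental 4 h reached 200 bp, the smallest width in any list.

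**Figure D4:**
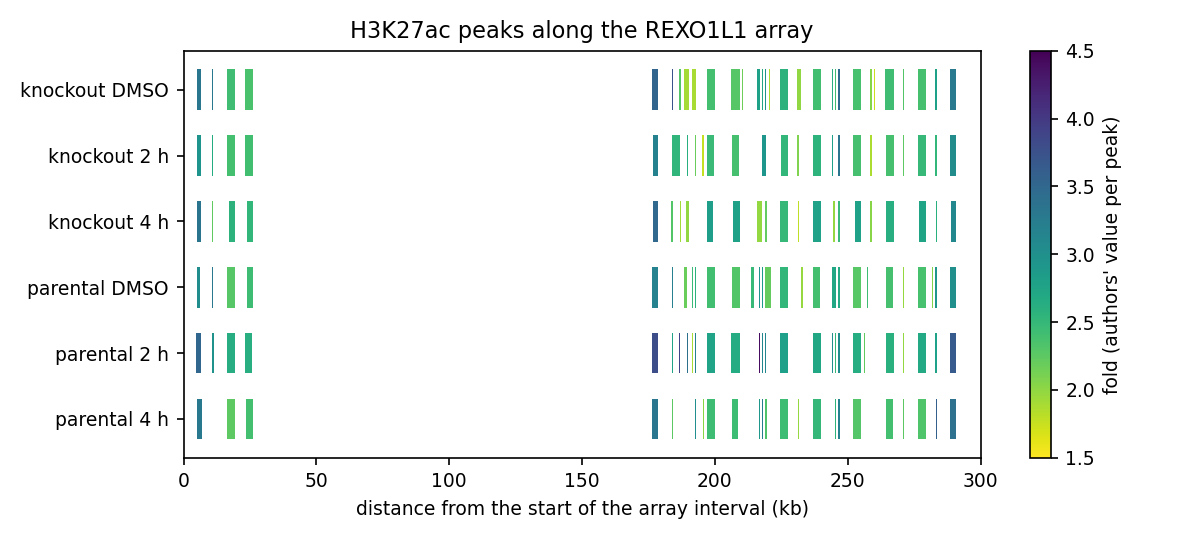
Peaks of each library along the REXO1L1 interval, with the distance from its start in kb on the x axis, a row for each library and the colour giving the fold of the peak. The long blocks stand at the same places in the 6 rows, and no row has a block over the 150074 bp in the middle.

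At 21 places a peak was present in all 6 libraries, and at 12 of them the shared stretch was at least 1000 bp long. Before the empty stretch these 12 long sites began at 86555057, 86566995 and 86573870. After it they began at 86726622, 86747076, 86756797, 86774715, 86786906, 86802633, 86814327, 86827020 and 86838708. After the empty stretch their centres were 9526.5 to 20725.5 bp apart, and 4 of those 8 distances, between 11455 and 12502 bp, were within 1000 bp of the median. Shifted along itself over the block after the empty stretch, the summed cover of the 6 libraries had its highest correlation at 12170 bp (r = 0.373 over 102333 positions), and the single libraries had theirs at 12140 to 12210 bp (r from 0.274 to 0.376). The REXO1L1 unit is known to be of about this length. The most frequent distance between peak centres varied more, at 5250, 12150 and 12250 bp in knockout control, 2 h and 4 h and at 6950, 5850 and 6950 bp in parental control, 2 h and 4 h, each from 3 to 5 pairs of peaks. By cover the spacing was thus alike in the 6 libraries, and by the distance between peaks it was not.

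The site at the start of the interval, the first after the empty stretch and the last of the array had the highest folds of the 12. Their folds were 3.28 to 3.53 in knockout control, 2.95 to 3.20 at 2 h and 3.10 to 3.50 at 4 h, and in parental control, 2 h and 4 h 3.01 to 3.18, 3.51 to 3.81 and 3.28 to 3.39. The other 9 sites had 2.29 to 2.57, 2.38 to 2.56 and 2.49 to 2.83 in knockout control, 2 h and 4 h, and 2.28 to 2.53, 2.60 to 2.81 and 2.25 to 2.50 in parental control, 2 h and 4 h. The ranges did not overlap in any of the 6 libraries. These 3 sites were set apart after their values were seen, and the site from 86573870, the last before the empty stretch, was with the other 9 at 2.36 to 2.62.

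The 9 inner sites had median widths of 3110, 2981 and 2505 bp in knockout control, 2 h and 4 h, and of 2977, 3036 and 2986 bp in parental control, 2 h and 4 h. Their widths ranged from 3080 to 3144, 2838 to 3078 and 2291 to 2981 bp in the knockout libraries, and from 2156 to 3054, 2419 to 3065 and 2506 to 3068 bp in the parental libraries, in the same order. They were most alike in knockout control. Their median −log10 p was 3.40, 2.77 and 3.02 in knockout control, 2 h and 4 h, and 2.62, 4.57 and 2.83 in parental control, 2 h and 4 h. At 9 of 9 sites the highest of the 6 values was that of parental 2 h. The sites lie in a tandem repeat whose copies can share reads, so they are not independent and are no replicates. In parental 2 h the −log10 p ranged from 4.06 to 4.88. It was 2.44 to 2.85 in parental control, 2.56 to 3.21 in parental 4 h and at most 3.80 in the knockout libraries, in knockout control. The share of all peaks with such an order was not computed, and the lists differ in depth. The order is therefore not shown to be particular to the array. The site from 86774715 shows the pattern, with 3.80, 2.99 and 2.51 in knockout control, 2 h and 4 h, and 2.85, 4.58 and 2.83 in parental control, 2 h and 4 h.

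The medians of the lists differed less in p, but their strong peaks differed more. The median −log10 p of all peaks was 1.83, 1.84 and 1.90 in knockout control, 2 h and 4 h, and 2.01, 2.21 and 2.05 in parental control, 2 h and 4 h. The 95th percentile was 8.21, 11.5 and 3.99 in the knockout libraries and 13.3, 11.6 and 12.5 in the parental libraries, in the same order. Above the median of their list the 9 sites stood by 1.17 to 1.97 in knockout control, 0.778 to 1.27 at 2 h and 0.616 to 1.27 at 4 h. In parental control they stood above it by 0.429 to 0.835, at 2 h by 1.85 to 2.67 and at 4 h by 0.504 to 1.15. The fold moved less, with a median of 2.66 in parental 2 h and 2.38 in parental control. The local background is solved from fold and p, so at a like fold it follows p and is no separate observation. For the members with a single solution, its median was 4.65 and 3.04 times that of the library in knockout control and 2 h. In parental control, 2 h and 4 h it was 3.15, 7.15 and 3.87 times. In knockout 4 h no member had a single solution, and the part of the background in the p values was not tested. None of the 178 members had a background of 50 times that of the library or more, in contrast to the 5S run.

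**Figure D5:**
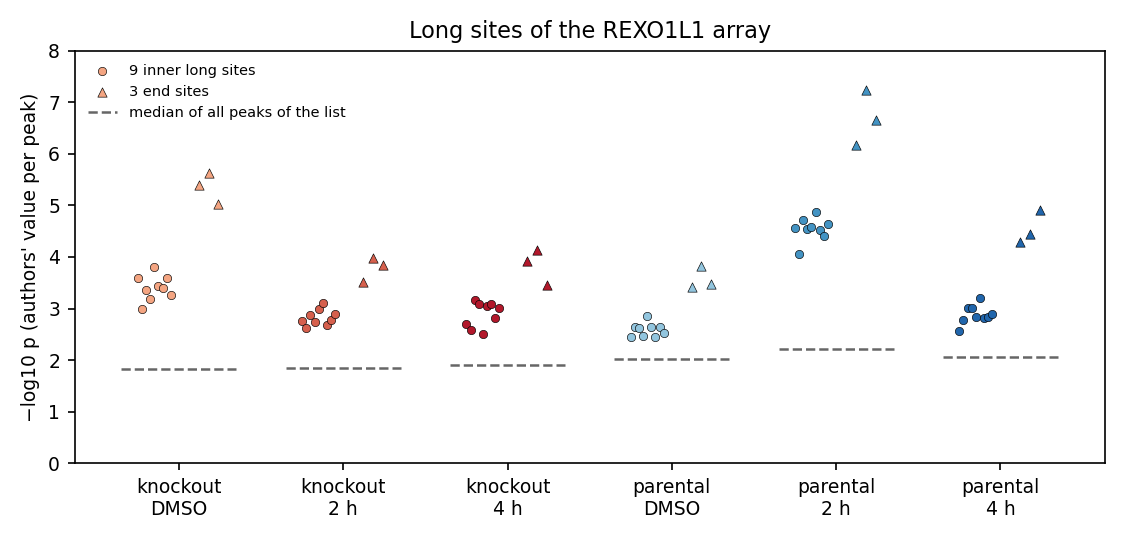
The −log10 p (y axis, authors' value) of the 9 inner long sites (circles) and of the 3 outer long sites (triangles) of the REXO1L1 array by library, with the median of all peaks of the list as a dashed line. Parental 2 h is highest at 9 of 9 inner sites, with values of 4.06 to 4.88. The sites of a library are not independent, and the share of all peaks with this order was not computed.

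With all deposited peaks, between 0 and 2 of the 16 REXO1L1 windows marked in each pair were called in a direction. Knockout 2 h was longer than knockout control in 0 and shorter in 1, where 5.57% of all marked windows were longer and 12.4% shorter. Knockout 4 h was longer than knockout control in 0 and shorter in 2 (background 6.79% and 10.0%). Parental 2 h was longer than parental control in 0 and shorter in 2 (background 8.12% and 7.71%), and parental 4 h likewise in 0 and 2 (background 8.16% and 7.01%). Knockout control was longer than parental control in 1 and shorter in 0 (background 17.9% and 3.12%). So were knockout 2 h against parental 2 h (background 13.1% and 5.22%) and knockout 4 h against parental 4 h (background 12.1% and 4.37%). With 16 windows, such counts are near the background, which was not matched on cover.

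The differences in cover of a REXO1L1 window ranged from −1787 to 1639 bp over the 7 pairs. The largest loss with treatment in the knockout was at 86740001 to 86750000, where knockout control had 4719 bp, knockout 2 h 3666 bp and knockout 4 h 2932 bp. The largest gain there was at 86760001 to 86770000, with 2056, 2393 and 2884 bp in knockout control, 2 h and 4 h. In parental cells that same window had the largest loss, with 2914, 1412 and 1615 bp in control, 2 h and 4 h. The largest parental gains were 2389 bp at 2 h against 1669 bp in control at 86550001, and 2722 bp at 4 h against 2156 bp in control at 86570001. Between genotypes the largest gains were 4719 bp in knockout control against 3458 bp in parental control at 86740001, 3179 bp in knockout 2 h against 1540 bp in parental 2 h at 86730001, and 2884 bp in knockout 4 h against 1615 bp in parental 4 h at 86760001. The largest losses were 2056 bp in knockout control against 2914 bp in parental control at 86760001, 1823 bp in knockout 2 h against 2389 bp in parental 2 h at 86550001, and 2702 bp in knockout 4 h against 3410 bp in parental 4 h at 86820001.

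The count of called windows over both intervals depended on the threshold. With a call at 500 bp, knockout 2 h was longer than knockout control in 1 window and shorter in 5 (background 13.1% and 25.5%), and knockout 4 h was longer in 1 and shorter in 16 (16.9% and 19.2%). Parental 2 h was longer than parental control in 1 and shorter in 6 (17.7% and 17.6%), and parental 4 h in 3 and 8 (17.9% and 16.7%). Between genotypes, knockout control was longer than parental control in 5 and shorter in 4 (33.5% and 8.04%), knockout 2 h than parental 2 h in 5 and 3 (26.3% and 12.1%), and knockout 4 h than parental 4 h in 3 and 6 (27.2% and 9.34%). At 2000 bp, knockout 4 h was shorter than knockout control in 2 windows (background 2.61%) and shorter than parental 4 h in 3 (1.00%), and parental 4 h was longer than parental control in 1 (1.69%).

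With only the 30000 peaks of smallest p in each library, more windows were called, and the inner sites lay near that rank. Of the 9 inner sites, 5, 0 and 0 were among these peaks in knockout control, 2 h and 4 h, and 0, 9 and 1 in parental control, 2 h and 4 h. Of all REXO1L1 members, 48.4%, 17.2% and 12.5% were in the knockout libraries (all peaks: 11.2%, 13.8% and 7.45%). In the parental libraries 27.3%, 74.2% and 36.7% were (all peaks: 17.5%, 16.9% and 16.8%). Parental 2 h was then longer than parental control in 11 of 16 REXO1L1 windows, where 2.83% of all windows were. Knockout 2 h was shorter than parental 2 h in 10 of 16 (background 3.06%). Knockout 2 h and knockout 4 h were each shorter than knockout control in 6 of 12 (background 4.09% and 14.6%), and knockout control was longer than parental control in 6 of 12 (background 5.25%). With all deposited peaks, at most 2 REXO1L1 windows were called in any of these comparisons.

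In the 5S interval with the 30000 peaks, knockout 2 h was shorter than knockout control in 4 of 5 windows (background 4.09%) and shorter than parental 2 h in 3 (background 3.06%). Parental 4 h was longer than parental control in 3 (background 3.31%), and parental 2 h was shorter in 2 (background 7.81%). Knockout 4 h was shorter than parental 4 h in 3 (background 11.9%), and against knockout control it was longer in 1 (background 2.23%) and shorter in 2 (background 14.6%). With all deposited peaks, knockout 2 h and parental 2 h had 0 windows called in these comparisons.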

How the data were processed

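H3K27ac ChIP-seq of 6 libraries was taken as the authors deposited it, as 1 list of broad peaks per library, with peaks called per library. Per the submitters' processing notes, the build was hg19 and the tools included MACS2 2.1.2, Picard 2.9.2, SAMtools 1.8, BWA 0.7.17, Trimmomatic 0.39 and Trim Galore 0.6.2. Not given in the sources used here are their settings, the control of the peak calls and the treatment of reads with several placements. Fold ratios, −log10 p and −log10 q were deposited by the authors for each peak. The score column, also deposited, is the −log10 q times 10 and served only as a check.

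Members, lists and windows were chosen with earlier results of these data known. Named peaks were all members of an array and library where there were 10 or fewer, otherwise the widest, the narrowest and the strongest by p and by fold; the windows with the largest gain and loss in each pair; and places covered in all 6 libraries. Peaks were ranked within a list, merged for covered length, and compared in windows of 10 kb in 7 pairs of libraries, with a call at 1000 bp. Background and pileup were solved from fold and p; the library background returned the deposited −log10 p to within 1.22e-05. Depth in reads is unknown. With 1 library per group there is no p-value between groups. The steps were tested on simulated data. There the solved background was too high, at 1.06 to 1.31 times the true one for peaks like those of the 5S array. For peaks like those of REXO1L1 it was 1.29 to 1.33 times (medians). Coordinates are 1-based. Python 3.11.15, pandas 2.3.3, NumPy 2.4.6, SciPy 1.17.1 and matplotlib 3.10.9 were used. Identity between repeat copies was planned and was not analysed here.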

Additional observations from a re-analysis of the deposited data

Results flagged for a closer look

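In the 5S window on chromosome 1 from 228760001 to 228770000, the covered length moved in opposite directions at 4 h in the 2 genotypes. Knockout 4 h differed from knockout control by −1553 bp and parental 4 h from parental control by 2036 bp, a difference of −3589 bp (knockout minus parental). With 1 library per group this difference was not tested. Knockout 4 h also had a library background of 0.168 fragments per base, where knockout control had 0.699, and the part of this in the difference was not tested.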

How the results depend on the processing

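Of the alternatives to main results, 27 left the value within the margin and 47 moved it. With the 30000 peaks of smallest p, 3 comparisons over both arrays had more windows called in the other direction than with all peaks. Parental 2 h against control had 11 longer and 2 shorter (all peaks: 0 and 2), parental 4 h against control 4 and 0 (all peaks: 1 and 2), and knockout 2 h against parental 2 h 0 and 13 (all peaks: 1 and 0). Knockout control against parental control had 6 and 0, in place of 1 and 1. The shares of all marked windows for the counts above 0 are given above. With these peaks, 32 in place of 56 members were left in the 5S array and 66 in place of 178 in the REXO1L1 array, where the cover summed over libraries was 95626 in place of 252003 bp. Peaks with a −log10 q of 2 or more gave 19 and 31 members, with 94546 bp of cover in place of 187524 in the 5S array and 48453 bp in the REXO1L1 array. With a fold of at least 2 the 5S cover was 0. Leaving out the stretch without a peak, the median excess of REXO1L1 cover over its flanks was 26.9 in place of 13.2 percentage points, by construction. The median rank of the strongest 5S peak was 15344 by p, 177682 by fold and 94.5 by solved pileup.

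Without peaks wider than 2000 bp, the spacing by cover was 2260 in place of 4440 bp in the 5S array and 27470 in place of 12170 bp in the REXO1L1 array. The most frequent distance between REXO1L1 peaks was 12250 bp between centres, 27450 bp between starts and 6950 bp without knockout 4 h.

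Counts of called windows over both arrays changed with the threshold and the peaks used. At 500 bp, in the order knockout 2 h and knockout 4 h against control, parental 2 h and parental 4 h against control, and knockout against parental in control, at 2 h and at 4 h, longer windows numbered 1, 1, 1, 3, 5, 5 and 3 (at 1000 bp: 0, 0, 0, 1, 1, 1 and 1) and shorter windows 5, 16, 6, 8, 4, 3 and 6 (at 1000 bp: 1, 6, 2, 2, 1, 0 and 3). The shares of all marked windows at these thresholds are given above. At 2000 bp, longer windows were 0 in the 3 comparisons of genotypes, and shorter windows were 2 in knockout 4 h against control and 0 in knockout 2 h, parental 2 h and parental 4 h against control and in knockout control against parental control. With 30000 peaks, longer windows also numbered 1 in knockout 4 h against control (background 2.23%) and 0 in knockout 4 h against parental 4 h. Shorter windows numbered 10 in knockout 2 h against control (background 4.09%). The cause of these changes was not tested. No paired analysis was possible because each group has 1 library and no result comes from a test. Precision is limited by the lack of replicates and by the low depth of knockout 4 h.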

Other observations

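At 9 further places of the REXO1L1 array, with a shared stretch under 1000 bp, a peak was also present in all 6 libraries. At 86766595 to 86766786 the covering peak had a fold of 2.79, 2.21 and 1.98 in knockout control, 2 h and 4 h, and of 2.96, 4.41 and 2.899 in parental control, 2 h and 4 h. The covering peak there was 2043 bp wide in knockout 4 h and 280 to 1005 bp in the other libraries, and a fold is a mean over the whole peak. At 86560935 to 86561218 the folds were 3.28, 2.67 and 2.24 in knockout control, 2 h and 4 h, and 3.29, 2.98 and 4.37 in parental control, 2 h and 4 h. At 86796365 to 86796946 they were 3.47, 3.33 and 2.47 in knockout control, 2 h and 4 h, and 2.69, 3.04 and 3.18 in parental control, 2 h and 4 h. These 3 places were chosen after their values were seen, and the library with the highest fold differed between them.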
